A study of Schizosaccharomyces pombe with 13 samples.

Results

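The cytosolic ribosome of fission yeast (Schizosaccharomyces pombe) has a large subunit, the 60S particle, which joins amino acids at the peptidyl transferase centre and lets the new chain out through a tunnel. Its protein genes were taken as the rows of the authors' deposited sense table whose description holds both 60S and ribosomal protein and does not hold mitochondrial. This gave 83 genes of the 5747 entries, and all 83 had an identifier in the reference annotation (RefSeq, assembly ASM294v3). RefSeq names the product of rpl701, described as L7 by the authors' table, an L7-like subunit of RNase MRP. In growing yeast cells these genes are among the most actively transcribed, and their transcripts usually move together with nutrient supply, growth and stress. Many of them exist as paralogs, separate genes for nearly the same protein. Most proteins enter the subunit in the nucleolus and nucleoplasm with the help of assembly factors, and some, such as those of the stalk that recruits translation factors, join late.

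RNA came from haploid cultures in exponential growth, in 13 libraries. A strain lacking xap5 (SPCC1020.12c::KanMx4, h+, labelled Bioneer-BG4186), a strain lacking pht1 (SPBC11B10.10c::NatMx4, h-) and a double deletion strain carrying both replacements (h-) gave 3 libraries each, and wild type (h+) gave 4. All strains had the ED668 background with ade6-M216, ura4-D18 and leu1-32, and all cultures moved from YES medium at 30 °C to EMM50 medium at 37 °C, so that the heat and the medium were shared by wild type. Xap5 is a conserved nuclear protein and pht1 encodes H2A.Z, the histone variant placed at nucleosomes near gene starts. Ribosomal RNA was depleted, and single reads of 100 bases kept the strand, with an average depth given as 11.8 M reads for a library.

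The values below are the authors' own. Each fold is their deposited log2 fold of a deletion strain over wild type, where −1 is a halving, and a gene is called lower or higher where their adjusted p-value is under 0.05. Values per library, standard errors and expression levels were not analysed here, so no spread between replicates stands beside a fold and no test was added. The labels do not say whether replicates came from separate cultures, so p-values reflect how far libraries of a strain spread, which may be technical. The same wild-type libraries serve all 3 comparisons, so the folds of the 3 strains are set side by side and not counted as separate evidence. Folds compare shares of sequenced RNA in whole cultures, where less RNA per cell and fewer cells of a kind cannot be told apart. In the authors' deposited table the xap5 transcript had a fold of −3.11 in the xap5 deletion and −2.11 in the double deletion, and the pht1 transcript −2.13 in the pht1 and −1.55 in the double deletion. The pht1 and double deletions differ from wild type in labelled mating type as well, and the 2 differences cannot be told apart. Of 6 M mating genes, mat1-Mc (−4.27), mat3-Mc (−4.28) and mfm2 (−2.62) were lower in the xap5 deletion although both that strain and wild type are labelled h+, none was called in the pht1 deletion (2 were higher at an unadjusted p under 0.05) and 6 were higher in the double deletion. Of the 4 P mating genes found in the table, map1 (1.28) and map3 (0.53) were higher in the xap5 deletion, map1 (1.02) and mam3 (0.96) were higher in the double deletion, labelled h-, and 0 were called in the pht1 deletion (1 was higher at an unadjusted p under 0.05). Thus mat1-Mc, mat3-Mc and mfm2 were called lower than in wild type in the xap5 deletion alone, the strain labelled as wild type is. The labels therefore do not settle which comparisons carry a mating type difference, and the xap5 comparison may carry one too. The part of mating type in the folds below was not tested for any strain.

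Several genes on which the results turn are shown first through the DNA just upstream of their annotated transcript starts. In fission yeast, ribosomal protein promoters commonly carry the HomolD box, CAGTCACA, which takes the place of a TATA box, and some carry the HomolE box, in which ACCCT stands 2 times in a row. Sequences were read from RefSeq assembly ASM294v3, 5′ to 3′ on the strand of the gene, and capitals mark HomolD, HomolE or CAGTCACG, which differs from HomolD in its last letter, on either strand. The first pair, rpl803 (chrII:601152-601251, plus strand) and rpl3001 (chrI:1974084-1974183, minus strand), hold both boxes within 100 bases, and rpl802 (chrII:1726565-1726664, plus strand), a paralog of rpl803 with the same protein, has no HomolD box.
rpl803: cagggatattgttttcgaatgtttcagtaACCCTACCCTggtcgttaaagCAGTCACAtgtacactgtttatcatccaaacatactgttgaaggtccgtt
rpl3001: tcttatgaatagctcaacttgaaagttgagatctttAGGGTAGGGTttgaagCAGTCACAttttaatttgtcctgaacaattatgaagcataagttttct
rpl802: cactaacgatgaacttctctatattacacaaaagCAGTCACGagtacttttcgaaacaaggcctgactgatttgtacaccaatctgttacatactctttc

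The P2 stalk genes, the paralogs with the widest spread of folds in the pht1 and double deletions, come next: rpp201 (chrII:3643061-3643160, plus strand), rpp202 (chrII:2128468-2128567, minus strand) and rpp203 (chrI:3869004-3869033, plus strand). They are followed by the members that were called higher in a strain, rpl1603 (chrII:3443187-3443216, plus strand) and rpl42 (chrI:3722357-3722456, plus strand). For rpp203 and rpl1603, whose upstream DNA overlaps another gene, 30 bases around the first match are shown. The 100 bases upstream of rpp203 also hold 1 CAGTCACG, outside the 30 shown.
rpp201: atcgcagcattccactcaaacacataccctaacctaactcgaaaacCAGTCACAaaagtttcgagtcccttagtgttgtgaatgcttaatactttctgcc
rpp202: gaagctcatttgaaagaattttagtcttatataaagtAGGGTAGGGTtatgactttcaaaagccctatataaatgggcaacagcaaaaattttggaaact
rpp203: tcttgaaacgtTGTGACTGtctttttcgta
rpl1603: cgtcagaaaaaCAGTCACGtttgataaaca
rpl42: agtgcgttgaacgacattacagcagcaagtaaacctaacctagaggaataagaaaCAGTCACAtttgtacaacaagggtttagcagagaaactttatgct

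Most large subunit genes were lower in the double deletion, and smaller numbers of them passed the threshold in the xap5 and pht1 deletions. In the authors' deposited table, 75 of 83 members were called lower in the double deletion (90.4%, where 34.3% of all 5747 sense entries were lower) and 1 was higher (1.2% of members; 30.5% of all entries). In the xap5 deletion 42 members were lower (50.6%; 20.6% of all entries) and 1 was higher (1.2%; 21.1% of all entries). In the pht1 deletion 16 were lower (19.3%; 11.1% of all entries) and 0 were higher (13.5% of all entries), also at an unadjusted p under 0.05. The remaining 7, 40 and 67 members of the double, xap5 and pht1 deletions passed in neither direction. In the double deletion the 7 were rpl26 (−0.34), rpl3401 (−0.32), rpl1802 (−0.27), rpl2701 (−0.27), rpl8 (−0.25), rpl3002 (−0.20) and rpl1001 (−0.01). Fewer calls in one strain do not show that a gene differed between strains, since that difference was not tested.

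The medians of the deposited folds over the 83 members were −0.35 in the xap5 deletion, −0.14 in the pht1 and −0.59 in the double deletion. They correspond to 78.6%, 90.9% and 66.6% of the wild-type share, while the medians over all sense entries were −0.01, −0.02 and −0.05. Members below 0 numbered 80, 65 and 82 of 83. The interquartile range of the members' folds lay between −0.45 and −0.25 in the xap5 deletion, between −0.34 and −0.02 in the pht1 deletion, and between −0.76 and −0.43 in the double deletion. Nearly all members lay below 0 in the strains lacking xap5, and 18 lay above 0 in the pht1 deletion.

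Few of these changes reached 2-fold. Called lower members had deposited folds between −0.90 and −0.34 in the xap5 deletion, between −0.67 and −0.36 in the pht1 deletion and between −1.42 and −0.31 in the double deletion. A reduction of at least 1.5-fold was reached by 5, 2 and 42 members, and one of at least 2-fold by 0, 0 and 4 members. The 4 were rpp203, rpp101, rpp103 and rpl4101. At a stricter adjusted p under 0.01, 25, 6 and 62 members were lower and 0 were higher in each strain. The share of all entries at that threshold was not counted.

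**Figure D1:**
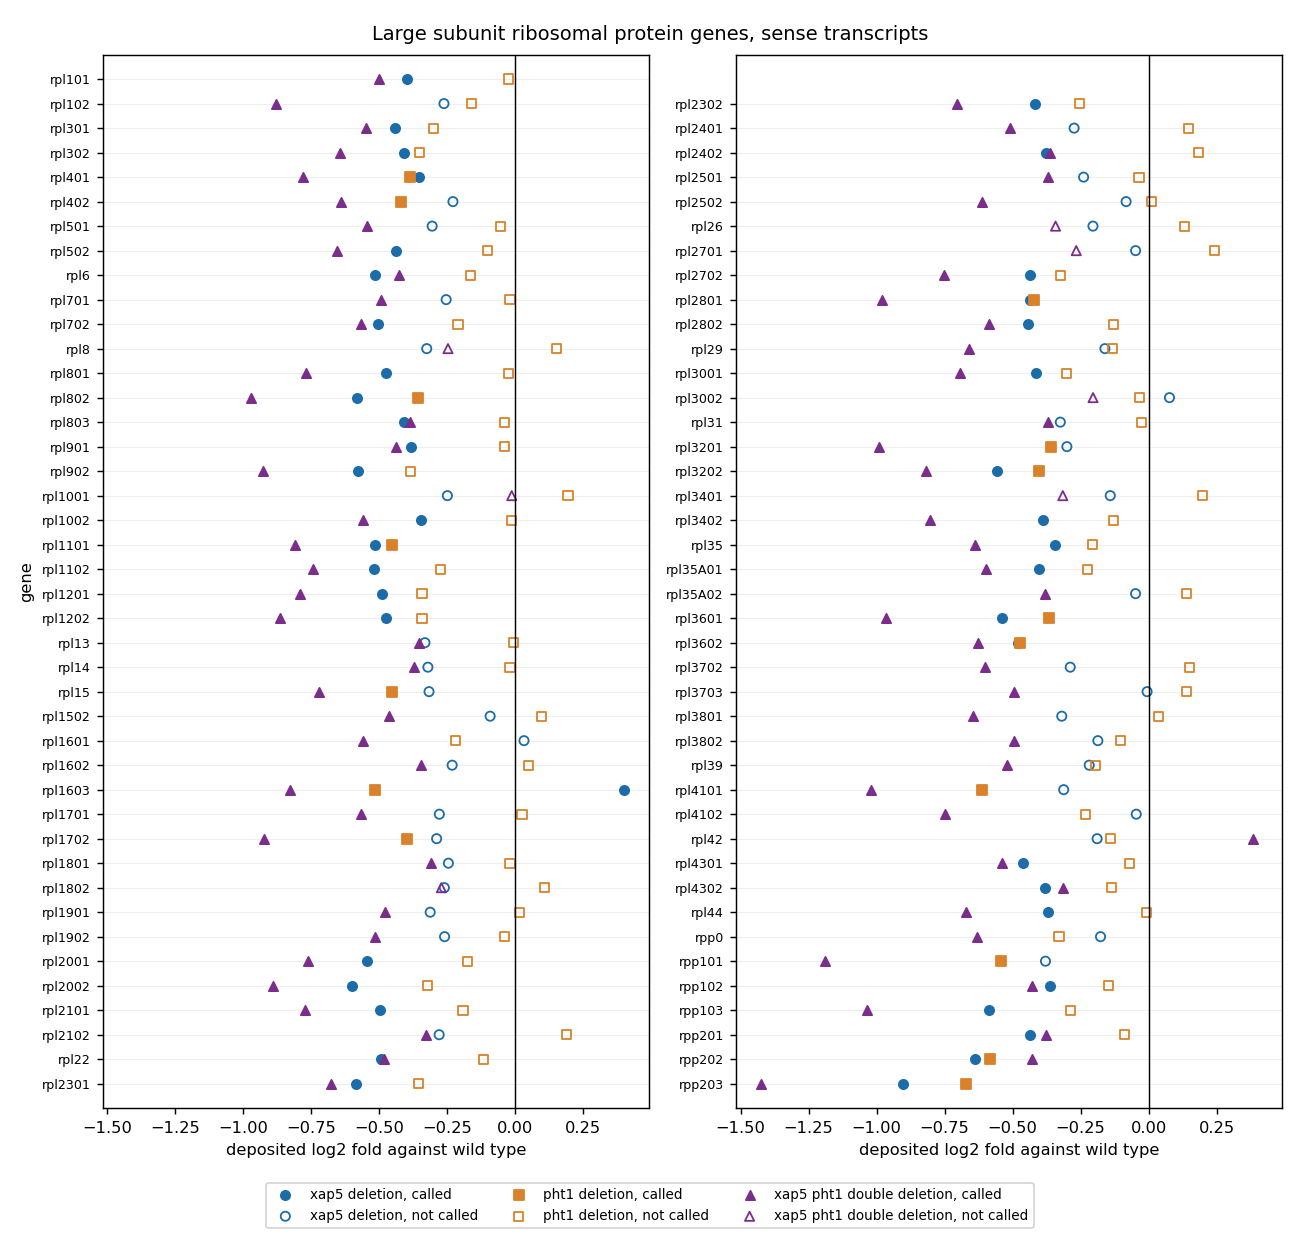
Deposited log2 fold against wild type (horizontal axis) of each of the 83 large subunit genes (vertical axis, in order of name), with a circle for the xap5 deletion, a square for the pht1 deletion and a triangle for the double deletion, filled where the authors' adjusted p-value is under 0.05. Triangles lie furthest to the left for most genes, down to −1.42 for rpp203, and the filled symbols right of 0 are rpl1603 at 0.40 in the xap5 deletion and rpl42 at 0.38 in the double deletion.

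The acidic stalk proteins held the lowest members. The stalk is a flexible arm of the subunit that recruits translation factors and stimulates their GTP hydrolysis, with P0 at its base and pairs of P1 and P2 proteins along it. In the authors' deposited table, all 7 stalk genes were lower in the double deletion, 5 in the xap5 and 3 in the pht1 deletion. Among all 83 members 90.4%, 50.6% and 19.3% were lower in these strains. Stalk medians were −0.63, −0.44 and −0.33, beside −0.59, −0.35 and −0.14 for all members. From the lowest in the double deletion, rpp203, rpp101 and rpp103 ranked 1, 2 and 3. There rpp0 ranked 37, and rpp102, rpp202 and rpp201 ranked 61, 62 and 66. The gene rpp203 (SPAC1071.08, chromosome I, 3869089 to 3869610, plus strand), for a P2 protein, was the lowest member in each strain. Its deposited folds were −0.90 in the xap5 deletion (authors' adjusted p = 7.28e-07), −0.67 in the pht1 (0.000645) and −1.42 in the double deletion (7.95e-16), which are 0.535, 0.628 and 0.373 times the wild-type share.

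The other P2 genes lay closer to wild type in the double deletion. By the authors' deposited table rpp202 (SPBC23G7.15c) was lower in each strain, with folds of −0.64 in the xap5 deletion, −0.58 in the pht1 and −0.43 in the double deletion. It was the member whose double deletion fold lay furthest above the sum of its single deletion folds, by 0.79. Near it, SPNCRNA.389 (1335 bases away) had −2.42, −1.74 and −1.28 in the same order, all called lower. SPBC23G7.13c (2629 bases away) had −3.76, −1.28 and −2.51, all called lower. The mating gene mat3-Mc (4381 bases away) had −4.28, 0.16 and 0.93. SPBC23G7.14, which overlaps rpp202, had −0.11, −0.15 and 0.38. How this region relates to the folds of rpp202 was not tested. Deposited folds of rpp201 (SPBP8B7.06) were −0.44 and −0.38 where xap5 was absent, both called lower in the xap5 and double deletions, and −0.09 in the pht1 deletion, which was not called (authors' adjusted p = 0.736). P2 therefore had the widest range among paralogs in the pht1 (0.58) and double (1.05) deletions. The proteins of rpp202 and rpp203 were 77.9% identical, the lowest of any paralogs, and their double deletion folds lay 0.996 apart. Those of rpp201 and rpp203, which set the range, were 90.9% identical. Those of rpp201 and rpp202 were 78.8% identical, with double deletion folds 0.05 apart. In the sequences above rpp202 showed a HomolE box and no HomolD box, and rpp201 a HomolD box. How identity or promoter relates to the folds was not tested.

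Of the P1 genes, rpp101 and rpp103 lay below −1 in the double deletion and rpp102 did not. The deposited folds of rpp101 (SPAC644.15) were −0.54 in the pht1 and −1.19 in the double deletion, both called lower, while −0.38 in the xap5 deletion missed the threshold at an authors' adjusted p of 0.0508. For rpp103 (SPCP1E11.09c) they were −0.59 in the xap5 deletion and −1.03 in the double deletion, both called, and −0.29 in the pht1 deletion, not called. The third P1 gene, rpp102 (SPBC3B9.13c), was lower in the xap5 deletion (−0.36) and in the double deletion (−0.43) of the deposited table, with −0.15 in the pht1 deletion, not called. The single P0 gene, rpp0 (SPCC18.14c), was called lower in the double deletion alone (−0.63), with deposited folds of −0.18 in the xap5 deletion and −0.33 in the pht1 deletion.

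Genes for proteins at the stalk base and around the 5S rRNA were called lower in the double deletion, and fewer of them in the single deletions. The proteins of rpl1201 and rpl1202, which bind rRNA under the stalk, are identical, and the genes share a run of 485 bases, so that reads of 100 bases cannot always be assigned to either. Both were called lower in the xap5 deletion (−0.49 and −0.47) and in the double deletion (−0.79 and −0.86) of the authors' deposited table, and neither in the pht1 deletion (−0.34 each). L5 and L11 bring the 5S rRNA into the subunit: rpl1101 was lower in each strain, with deposited folds of −0.51 in the xap5 deletion, −0.45 in the pht1 and −0.81 in the double deletion. Its paralog rpl1102 was lower in the xap5 (−0.52) and double (−0.74) deletions and had −0.28 in the pht1 deletion, not called. The deposited folds of rpl501 and rpl502 in the double deletion were −0.54 and −0.65, both called lower. In the xap5 deletion rpl502 was lower (−0.44) and rpl501 had −0.31, not called (authors' adjusted p = 0.0717), and in the pht1 deletion they had −0.10 and −0.05, not called.

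Proteins close to the peptidyl transferase centre include L3, L8 and L10. L3, which reaches towards that centre, is encoded by rpl301 and rpl302, which share a run of 848 bases. Both were lower in the xap5 (−0.44 and −0.41) and double (−0.55 and −0.65) deletions of the authors' deposited table. In the pht1 deletion they had −0.30 and −0.35 (authors' adjusted p = 0.106 and 0.0512), not called. The genes rpl801, rpl802 and rpl803 encode an identical protein that lies beside the centre, and all were lower in the xap5 deletion (−0.47, −0.58 and −0.41) and in the double deletion (−0.77, −0.97 and −0.39). In the pht1 deletion the deposited fold of rpl802 was −0.36 and called (authors' adjusted p = 0.0481), and those of rpl801 (−0.02) and rpl803 (−0.04) were not. The call for rpl802 was lost when p-values were adjusted anew over the sense table. Their range in the double deletion, 0.58, was the third widest among families with paralogs. L10 joins at the last cytoplasmic steps, and its genes rpl1001 and rpl1002 share a run of 149 bases: rpl1002 was lower in the xap5 (−0.35) and double (−0.56) deletions, with −0.01 in the pht1 deletion, not called. The folds of rpl1001 were −0.25 in the xap5, 0.19 in the pht1 and −0.01 in the double deletion (authors' adjusted p = 0.95 there), none called.

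Genes for these proteins of the exit tunnel, where new chains emerge, were lower in the double deletion except rpl26. L4 and L17 line the tunnel. By the authors' deposited values rpl401 was lower in each strain (−0.35 in the xap5, −0.39 in the pht1 and −0.78 in the double deletion), and rpl402 in the pht1 (−0.42) and double (−0.64) deletions, with −0.23 in the xap5 deletion, not called. Of the L17 genes, rpl1702 was lower in the pht1 (−0.40) and double (−0.92) deletions, with −0.29 in the xap5 deletion, not called. The other, rpl1701, was called lower in the double deletion alone (−0.57) and had −0.28 in the xap5 and 0.03 in the pht1 deletion. L25, L26, L31, L35 and L39 sit around the tunnel, and L25 is a docking site for the signal recognition particle and chaperones. The deposited folds in the double deletion were −0.37 for rpl2501, −0.61 for rpl2502, −0.37 for rpl31, −0.64 for rpl35 and −0.52 for rpl39, all called lower, and −0.34 for rpl26, not called (authors' adjusted p = 0.0563). Among these only rpl35 was called in a single deletion, at −0.34 in the xap5 deletion, and it had −0.21 in the pht1 deletion.

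Several further members stood near the lower end. The L20 gene rpl2002 had the third lowest deposited fold of the xap5 deletion, −0.60, with −0.89 in the double deletion, both called lower, and −0.32 in the pht1 deletion, not called. L23 forms part of the surface that meets the small subunit and binds the factor that keeps the subunits apart. Its gene rpl2301 was lower in the xap5 (−0.59) and double (−0.68) deletions by the authors' deposited table, with −0.36 in the pht1 deletion, not called (authors' adjusted p = 0.0932). The genes rpl3201, rpl2801 and rpl3601 had double deletion folds of −0.99, −0.98 and −0.97, and each was called lower in the pht1 deletion too (−0.36, −0.42 and −0.37). In the xap5 deletion rpl2801 (−0.44) and rpl3601 (−0.54) were lower, and rpl3201 had −0.30, not called (authors' adjusted p = 0.0771). The pht1 call of rpl3201, at an authors' adjusted p of 0.0485, was lost when p-values were adjusted anew over the sense table. At the other end of the called range, rpl1801 and rpl4302 had −0.31 in the double deletion, rpl2102 had −0.33 and rpl1602 had −0.35. Of these, rpl4302 was also lower in the xap5 deletion (−0.38), where rpl1801, rpl2102 and rpl1602 had −0.25, −0.28 and −0.23, not called. The pht1 deletion folds of rpl1801, rpl4302, rpl2102 and rpl1602 were −0.02, −0.14, 0.19 and 0.05, none called.

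Further families also held genes called lower. L1 forms a mobile arm at the site where tRNA leaves. By the authors' deposited values its gene rpl101 was lower in the xap5 (−0.40) and double (−0.50) deletions, and rpl102 in the double deletion (−0.88). In the xap5 deletion rpl102 had −0.26, and in the pht1 deletion rpl101 had −0.02 and rpl102 −0.16, none called. L9 was lower for both genes in the xap5 deletion (−0.38 for rpl901 and −0.58 for rpl902) and in the double deletion (−0.44 and −0.93). In the pht1 deletion rpl901 had −0.04 and rpl902 −0.38 (authors' adjusted p = 0.0671), neither called. L24, which joins in the cytoplasm and bridges to the small subunit, was lower for both genes in the double deletion (−0.51 for rpl2401 and −0.36 for rpl2402). Their pht1 deletion folds of 0.15 and 0.18 were not called. In the xap5 deletion rpl2402 was lower (−0.38) and rpl2401 had −0.27, not called. Single genes with smaller deposited folds in the double deletion were rpl13 (−0.35) and rpl14 (−0.37), whose adjusted p-values of 0.0482 and 0.0365 lay near the threshold, and rpl29 had −0.66 there, all called lower.

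L41 is a family whose genes encode an identical peptide. These genes, rpl4101 (chrI:5402104-5402233, minus strand) and rpl4102 (chrI:2853790-2853919, minus strand), encode the same 25 residues, the shortest protein of the subunit, which lies at a bridge to the small subunit. Their coding sequences, joined over 2 exons and read from RefSeq assembly ASM294v3, differ at 8 of 78 bases, shown in capitals.
rpl4101: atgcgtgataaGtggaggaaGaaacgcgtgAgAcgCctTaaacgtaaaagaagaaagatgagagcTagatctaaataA
rpl4102: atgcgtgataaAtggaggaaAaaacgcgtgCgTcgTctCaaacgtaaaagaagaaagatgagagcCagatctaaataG
In the authors' deposited table rpl4101 was lower in the pht1 (−0.61) and double (−1.02) deletions and had −0.31 in the xap5 deletion, not called. Its paralog rpl4102 was lower in the double deletion (−0.75), with −0.05 in the xap5 deletion and −0.23 in the pht1 deletion, neither called. The difference between the paralogs was not tested, because their folds carry no standard error here.

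One member was higher in the xap5 deletion, rpl1603 (SPBC2G2.05, chromosome II, 3443254 to 3445951, plus strand), a gene for L16. Its deposited fold was 0.40 (authors' adjusted p = 0.0172), and it was lower in the pht1 (−0.51) and double (−0.83) deletions. Its double deletion fold lay 1.23 below its xap5 deletion fold, the largest such drop among members. The paralogs rpl1601 and rpl1602 had 0.03 and −0.23 in the xap5 deletion and −0.22 and 0.05 in the pht1 deletion of the deposited table, none called, and were lower in the double deletion (−0.56 and −0.35). L16 had the widest range of folds in the xap5 deletion, 0.63. The annotated transcript of rpl1603 lies for all its 2698 bases across apl1, an adaptor complex gene on the opposite strand. Signal antisense to apl1, which is the strand of rpl1603, had folds of 0.27 in the xap5 deletion, −0.72 in the pht1 and −0.87 in the double deletion, per the authors' deposited antisense table, the last 2 called lower. The higher call of rpl1603 did not hold at an adjusted p under 0.01.

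One member was higher in the double deletion, rpl42 (SPAC15E1.03, chromosome I, 3722457 to 3723074, plus strand), a single gene whose protein lies at the site where spent tRNA leaves and where cycloheximide binds. Its deposited fold was 0.38 (authors' adjusted p = 0.0114), with −0.19 in the xap5 deletion and −0.14 in the pht1 deletion, neither called. The gene before it, SPAC15E1.02c, lies on the other strand 620 bases away and was looked up after the fold of rpl42 was seen. It was higher in each strain, with deposited folds of 1.96 in the xap5 deletion, 1.29 in the pht1 and 3.34 in the double deletion. The gene on the other side, hal3, 681 bases away, had folds of −0.03, −0.06 and −0.04 in the same order, none called. The call of rpl42 did not hold at an adjusted p under 0.01 either.

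The 83 genes formed 46 families by name, of which 13 held a single gene, 29 held 2 and 4 held 3. Proteins of paralogs were between 77.9% and 100% identical with a median of 95.9%, and 8 of the 41 pairs were identical. Within the 33 families with paralogs, the median range of deposited folds was 0.16 in the xap5 deletion, 0.18 in the pht1 and 0.24 in the double deletion. The SDs over all members were 0.19, 0.22 and 0.27. A range of 2 or 3 genes and an SD of 83 are unlike measures. They do not show whether paralogs lay closer together than other members. A range above 0.5 occurred in 1, 4 and 4 families. Every paralog was called lower in 11 families of the xap5 deletion, 3 of the pht1 deletion and 28 of the double deletion. Paralogs were split between called and not called in 14, 9 and 5 families. Such a split shows on which side of the threshold each gene fell and not that paralogs differed.

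Named pairs show how far paralogs could lie apart. L30, which in budding yeast represses the splicing of its own transcript, was lower for rpl3001 in the xap5 (−0.41) and double (−0.69) deletions of the authors' deposited table, with −0.30 in the pht1 deletion, not called. Its paralog rpl3002 had 0.08, −0.03 and −0.20 in the xap5, pht1 and double deletions, none called. For L27, rpl2702 was lower in the xap5 (−0.44) and double (−0.75) deletions, while rpl2701 had −0.05 and −0.27 there, and the pair had −0.32 and 0.24 in the pht1 deletion, none of these last 4 called. For L15, an early rRNA binder, rpl15 was lower in the pht1 deletion (−0.45) and its paralog rpl1502 had 0.10, not called, while both were lower in the double deletion (−0.72 and −0.47) and neither was called in the xap5 deletion (−0.32 and −0.09). At the other extreme, rpl2301 and rpl2302 had −0.68 and −0.71 in the double deletion. In all, 3 pairs shared a run of at least 100 identical bases, rpl301 with rpl302, rpl1001 with rpl1002 and rpl1201 with rpl1202, and how the authors assigned such shared reads is not known here, so that values within these pairs are uncertain.

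**Figure D2:**
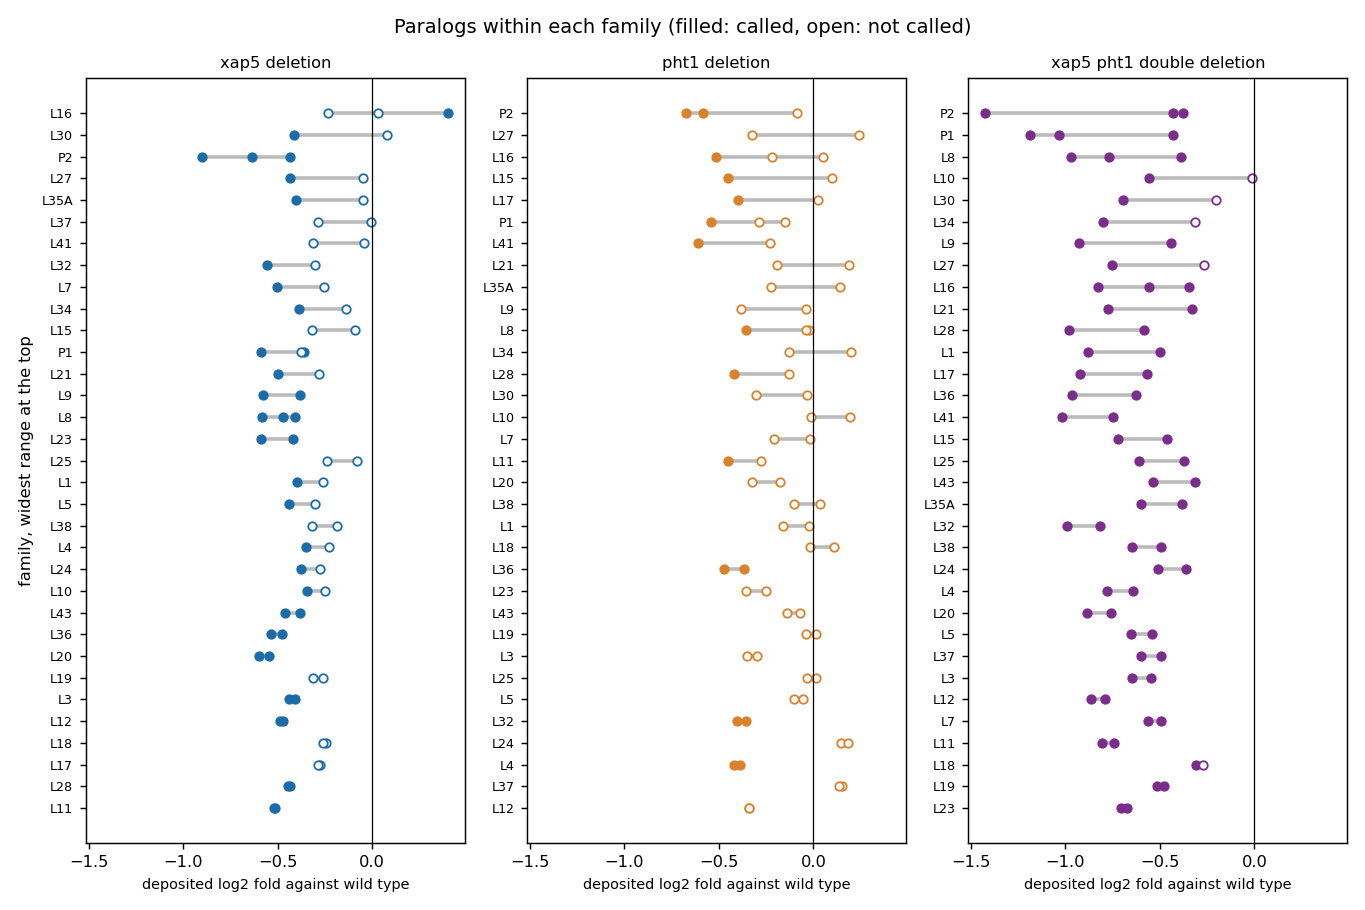
Deposited log2 folds against wild type (horizontal axes) of the genes within each of the 33 families with paralogs (vertical axis, widest range at the top, ordered separately in each panel), for the xap5, pht1 and double deletions from left to right. Filled points were called by the authors' adjusted p-value and grey bars span a family; the widest bars are L16 (0.63) in the xap5 deletion and P2 in the pht1 (0.58) and double (1.05) deletions.

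To set the double deletion beside each single one, the difference of deposited folds was taken, which cancels the wild type and has no error of its own here. Median differences over the members were −0.26 for the double minus the xap5 deletion and −0.46 for the double minus the pht1 deletion, with 73 and 81 of 83 members below 0. Over all 5747 sense entries the medians were −0.05 and −0.01, with 54.7% and 50.9% of entries below 0. After rpl1603, the largest drops below the xap5 deletion were those of rpp101 (−0.81), rpl4101 (−0.71), rpl4102 (−0.70) and rpl3201 (−0.69), and against the pht1 deletion the largest was that of rpp203 (−0.75). The double deletion fold minus the sum of both single deletion folds had a median of −0.09 over members, with 57 below 0, and of −0.03 over all sense entries, with 53% below 0. It was lowest for rpl1603 (−0.71) and highest for rpp202 (0.79), followed by rpl42 (0.71). None of these differences was tested.

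Small subunit proteins, which form the other part of the same ribosome, had medians near those of the large subunit. In the authors' deposited table, 27 of 55 genes for 40S proteins were lower in the xap5 deletion (49.1%, where 20.6% of all entries were lower). In the pht1 deletion 4 were lower (7.27%, against 11.1% of all entries) and in the double deletion 46 (83.6%, against 34.3%). The medians of these 55 genes were −0.33, −0.08 and −0.57, and 0 were higher (21.1%, 13.5% and 30.5% of all entries). At an unadjusted p under 0.05, 0, 1 and 0 of them were higher. The lowest was rps1201 in each strain (−0.85, −0.78 and −1.34). Next came rps1202 (−0.72) and rps001 (−0.66) in the xap5 deletion, rps2302 (−0.57) in the pht1 deletion, and rps2302 (−1.10) and rps1902 (−0.96) in the double deletion. The called genes nearest to 0 were rps1902, rps1001 and rps1501 in the xap5 deletion (−0.35, −0.35 and −0.34), rps502 in the pht1 deletion (−0.40), and rps3, rps2801 and rps20 in the double deletion (−0.39, −0.34 and −0.32). Of 4 genes that encode ubiquitin fused to a ribosomal protein, ubi2 and ubi5 were lower in the xap5 deletion (−0.37 each) and in the double deletion (−0.45 and −0.76), and 0 were called in the pht1 deletion, also at an unadjusted p under 0.05. These fusion genes were counted neither among the 40S genes nor among the large subunit members, and they were not divided by subunit.

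Genes for mitochondrial ribosomal proteins, which serve a separate ribosome, had medians nearer to 0. In the deposited table, 5 of 74 were lower (6.76%, against 20.6% of all entries) and 3 higher (4.05%, against 21.1%) in the xap5 deletion. In the pht1 deletion 4 were lower (5.41%, against 11.1% of all entries) and 1 was higher (1.35%, against 13.5%). In the double deletion 34 were lower (45.9%, against 34.3% of all entries) and 6 higher (8.11%, against 30.5%). Medians were −0.04, 0.02 and −0.24 in the xap5, pht1 and double deletions. The lowest called were mrpl12, mrpl15 and mrp2 in the xap5 deletion (−0.52, −0.40 and −0.36), mrpl12 in the pht1 deletion (−0.40), and mrpl12, mrpl4 and mrp5 in the double deletion (−1.10, −1.05 and −0.83). The highest called were mrpl39, kgd4 and mrps16 in the xap5 deletion (0.76, 0.70 and 0.41), mrpl39 in the pht1 deletion (0.64), and kgd4, mrpl39 and mrps16 in the double deletion (0.79, 0.52 and 0.39).

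Assembly factors of the 60S subunit process its rRNA and load its proteins, and most of them were lower in the strains lacking xap5. Of the 66 listed factors 55 were found in the table, and the list takes in noc4 and fap7, known for the small subunit. By symbol it also takes in genes that the table describes otherwise, rrp1 as a DNA helicase, drs1 as a cytoplasmic aspartate-tRNA ligase, bcp1 as a thioredoxin peroxidase and lsg1 as a Lsk1 complex subunit. The counts include all of them, and drs1 was among the lower ones in the xap5 (−0.81) and double (−0.91) deletions. In the authors' deposited table, lower calls numbered 46 (0 higher) in the xap5 deletion (median −0.56), 1 (5 higher) in the pht1 deletion (median 0.07) and 47 (1 higher) in the double deletion (median −0.82). The lower shares were 83.6%, 1.82% and 85.5%, against 20.6%, 11.1% and 34.3% of all entries. The higher shares were 0%, 9.09% and 1.82%, against 21.1%, 13.5% and 30.5% of all entries. The helicase genes dbp3 and dbp2 were lowest in the xap5 (−1.52 and −1.28) and double (−2.04 and −1.47) deletions. Next came rpf2 (−1.02), for a factor that loads the 5S particle, in the xap5 deletion, and rlp24 (−1.29), for a placeholder of L24, in the double deletion. The called factors nearest to 0 were alb1 (−0.37), ria1 (−0.35) and crb3 (−0.34) in the xap5 deletion. In the pht1 deletion ria1 was lower (−0.44), and loc1 (0.60), rrp1 (0.54), bcp1 (0.47), rpf1 (0.36) and mak5 (0.31) were higher. In the double deletion mdn1 (−0.39) and noc3 (−0.38) were the called lower ones nearest to 0 and rrp1 was higher (0.66).

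A list of 20 genes known to regulate ribosomal protein genes in yeasts had calls in both directions. By the deposited values, 2 were lower (10%; 20.6% of all entries) and 4 higher (20%; 21.1% of all entries) in the xap5 deletion. In the pht1 deletion 3 were lower (15%; 11.1%) and 1 was higher (5%; 13.5%), and in the double deletion 5 were lower (25%; 34.3%) and 7 higher (35%; 30.5%). Shares this near to those of all entries are no result about the list. The higher ones in the xap5 deletion were rap1 (1.46), a telomere protein in fission yeast, cgs1 (1.03) and pka1 (0.73), the regulatory and catalytic subunits of the cAMP-dependent kinase, and sfp1 (0.84), named for a regulator of these genes in budding yeast. The lower ones there were psk1 (−0.44), a kinase of the S6 kinase kind, and cka1 (−0.34), a subunit of casein kinase 2. In the pht1 deletion sck2 (−0.50), mip1 (−0.44) and tup12 (−0.31) were lower and rap1 was higher (0.34). In the double deletion the highest were cgs1 (1.80), pka1 (1.31) and rap1 (1.19), and the lowest were cka1 (−0.50), sck2 (−0.40) and psk1 (−0.39). The forkhead gene fhl1 had 0.02, −0.07 and −0.24 in the xap5, pht1 and double deletions, and ifh1 had −0.01, −0.19 and −0.01, none called.

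**Figure D3:**
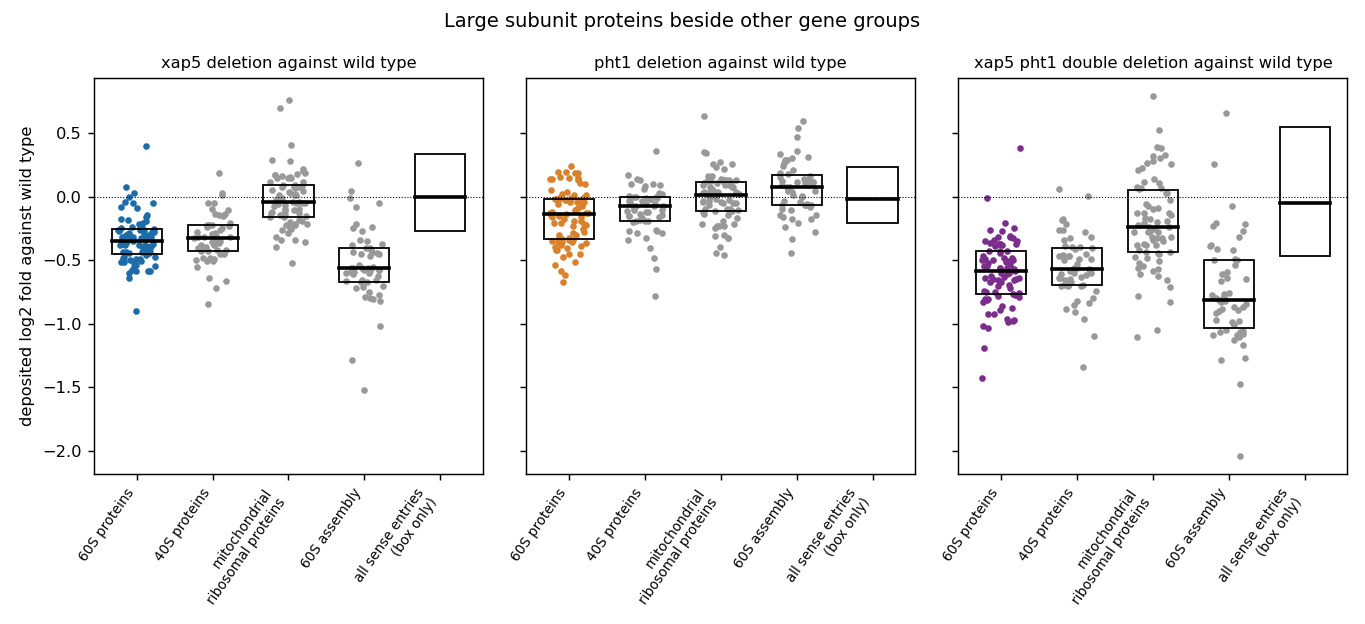
Deposited log2 folds against wild type (vertical axis) of the genes of 4 groups, 1 point a gene, and a box of all 5747 sense entries without points, in a panel each for the xap5, pht1 and double deletions. Boxes span the interquartile range with a bar at the median; the medians of the 60S proteins lie at −0.35, −0.14 and −0.59, and those of all entries at −0.01, −0.02 and −0.05.

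Antisense transcripts, read from the strand opposite a gene, were listed by the authors for a few large subunit genes. The authors' deposited antisense table lists 1561 entries, which appear to have been chosen for a change: in 1 strain or more, 1530 pass an adjusted p-value of 0.01. It holds 8 of the 83 members, and the other 75 are not listed under their own identifiers. All 8 were lower in the double deletion, where 9.55% of all entries of the table were lower and 76.7% higher. In the pht1 deletion 6 were lower (3.78% of all entries; 42.6% were higher), and in the xap5 deletion 0 were called in either direction (1.6% of all entries were lower and 33% higher), also at an unadjusted p under 0.05. For 2 members outside the 8, the same table lists an annotated antisense RNA under its own identifier, with folds above 0. Across all 835 bases of rpl1801, SPNCRNA.1594 was higher in the pht1 (1.21) and double (2.17) deletions, with 0.65 in the xap5 deletion, not called. Across all 761 bases of rpl1002, SPNCRNA.933 was higher in the double deletion (1.10) and had 0.36 in the xap5 and 0.48 in the pht1 deletion, not called. Because entries of the antisense table appear to have been chosen by such values, these counts are a description.

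The largest drop was antisense to rpl802, with deposited antisense folds of −2.96 in the pht1 and −3.73 in the double deletion. Its sense folds were −0.36 and −0.97 in those strains. Antisense to rpl4301 had −2.91 and −3.25, and antisense to rpl15, rpl402, rpl1602 and rpl801 had −2.40, −2.39, −2.25 and −1.93 in the pht1 deletion and −2.55, −2.49, −2.83 and −2.55 in the double deletion, all called in the authors' deposited table. For rpl1902 and rpl1001 the double deletion folds of −3.29 and −3.04 were called, and the pht1 deletion folds of −1.11 and −1.92 were not. The sense folds of rpl4301 were −0.46 in the xap5 and −0.54 in the double deletion, both called lower, and −0.07 in the pht1 deletion, not called. Those of rpl1902 were −0.51 in the double deletion, called lower, and −0.26 in the xap5 and −0.04 in the pht1 deletion, not called. In the xap5 deletion the 8 antisense folds lay between −0.73 (rpl802) and 0.17 (rpl15). The medians of the 8 were −0.34, −2.32 and −2.94 in the xap5, pht1 and double deletions, where all 1561 entries had 0.71, 0.82 and 1.44. Sense and antisense of rpl1001 lay far apart in the double deletion, at −0.01 and −3.04. The 6 calls of the pht1 deletion did not hold at an adjusted p under 0.01, where 0 were left.

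**Figure D4:**
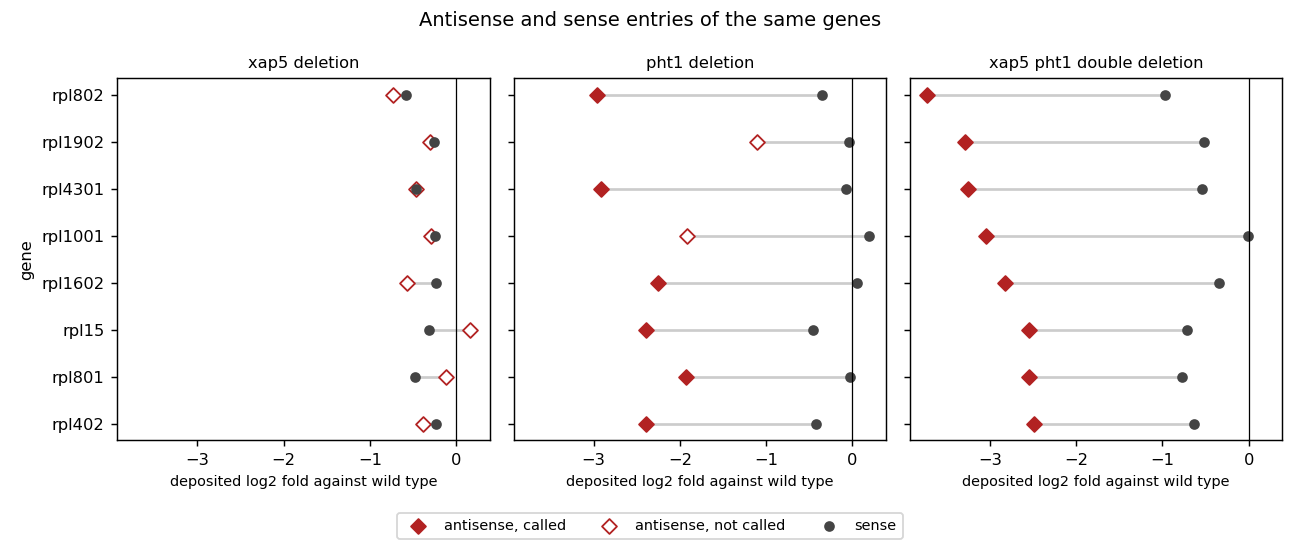
Deposited log2 folds against wild type (horizontal axes) of the antisense entry (diamond, filled where called) and the sense entry (grey point) of each of the 8 members in the antisense table, in a panel each for the xap5, pht1 and double deletions. Diamonds reach −2.96 in the pht1 and −3.73 in the double deletion, both for rpl802, and lie between −0.73 and 0.17 in the xap5 deletion.

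Other ribosomal protein genes had antisense entries in the same table. At 40S genes, antisense to rps1001, rps601 and rps2502 was lower in the pht1 deletion (−4.56, −3.50 and −3.31) and the double deletion (−3.01, −2.41 and −2.84), and antisense to rps7 was higher in the double deletion (1.66). Of 8 at mitochondrial ribosomal protein genes, 0 were lower and 1 was higher in the xap5 deletion by the authors' deposited values. In the pht1 deletion 0 were lower and 3 higher, and in the double deletion 1 was lower and 5 were higher. Among all antisense entries 33%, 42.6% and 76.7% were higher in the xap5, pht1 and double deletions, and 1.6%, 3.78% and 9.55% were lower. Higher calls did not exceed these shares, so the counts of so few genes are no result about the group. Signal antisense to SPAC1071.09c, whose gene covers all 522 bases of rpp203 on the other strand, was lower in the double deletion (−0.83), which reads the strand of rpp203 itself. The same holds for signal antisense to coy1 and pli1, which overlap rpl1702 and rpl44 by 435 and 464 bases and had −0.93 and −0.62 in the double deletion, both called lower. Signal antisense to wis4, which overlaps rpl3001 by 97 bases, was higher in the xap5 (0.77) and double (1.62) deletions.

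The HomolD box was looked for in a window of 300 bases, from 250 before to 50 after the annotated start, on both strands. It was present in 54 of the 83 members (65.1%), in 34 of 55 genes for 40S proteins (61.8%), in 0 of 74 for mitochondrial ribosomal proteins and in 137 of 5113 protein-coding genes of the annotation (2.68%). HomolE was present in 20 members (24.1%), in 21 of the 40S genes (38.2%), in 2 of the mitochondrial group (2.7%) and in 64 of all (1.25%), and both boxes in 13 members (15.7%) and 29 of all (0.567%). The letters CAGTCACG, chosen after promoters were seen, were present in 20 members (24.1%) and 63 of all (1.23%), so that 71 members (85.5%) held at least 1 of these forms against 196 of all (3.83%). With 1 mismatch allowed, HomolD matched 80 members (96.4%) and 829 of all (16.2%). Matches, the furthest upstream where a member had more (3 members), began at a median position of −51 from the start, with an interquartile range from −57 to −47, and lay on the strand of the gene in 39 and on the other strand in 15 members. A match is a run of letters and not a shown site of binding.

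**Figure D5:**
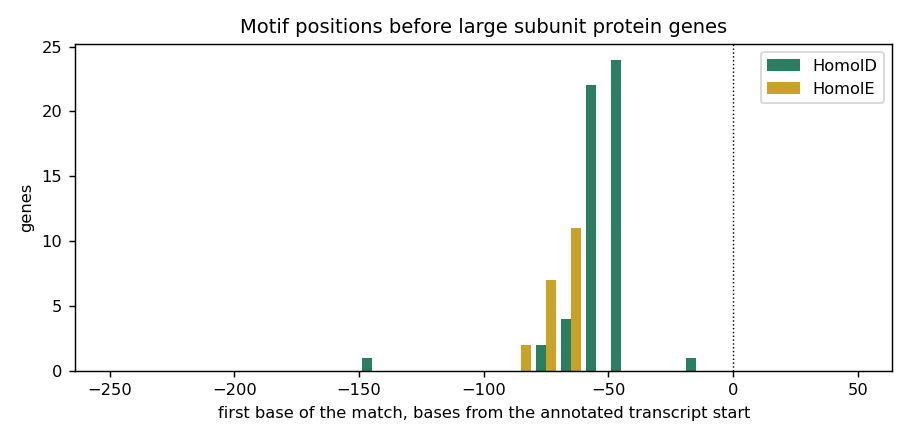
Number of large subunit genes (vertical axis) by the first base of the HomolD or HomolE match, in bases from the annotated transcript start (horizontal axis, start at 0). The interquartile range of the 54 HomolD matches runs from −57 to −47, and the HomolE bars stand to the left of the tallest HomolD bars.

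Medians were set side by side for members with and without these letters. By the authors' deposited table, the 54 with HomolD had medians of −0.35 in the xap5, −0.11 in the pht1 and −0.57 in the double deletion, and the 29 without it had −0.35, −0.22 and −0.61. The 20 with HomolE had −0.40, −0.07 and −0.50, and the 63 without it −0.32, −0.16 and −0.64. Members with a coding intron (43) had −0.32, −0.14 and −0.57, and those without (40) had −0.38, −0.13 and −0.61. By chromosome, 28 of 32 members on I, 27 of 31 on II and 20 of 20 on III were lower in the double deletion, with medians of −0.55, −0.56 and −0.67. Single genes of a family (13) had medians of −0.32, −0.12 and −0.43, with 4, 0 and 10 called lower, and genes with a paralog (70) had −0.38, −0.15 and −0.61, with 38, 16 and 65 called lower. Among all 83 members 50.6%, 19.3% and 90.4% were lower in the xap5, pht1 and double deletions. Among all sense entries 20.6%, 11.1% and 34.3% were lower. The groupings by letters, intron, chromosome and paralogs were described and not tested. The single genes called lower in the xap5 deletion were rpl6 (−0.52), rpl22 (−0.49), rpl44 (−0.37) and rpl35 (−0.34), and those not lower in the double deletion were rpl42, rpl26 and rpl8 (−0.25).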

How the data were processed

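Strand-specific RNA sequencing was made from 13 libraries of 4 strains, per the labels. The authors deposited their own comparisons of each deletion strain with wild type, as log2 folds with raw and adjusted p-values per transcript, and 2 of the 4 tables (sense and antisense) were used here. Headers name the folds only logFC; base 2 is assumed because edgeR, listed in the submitters' processing notes beside BWA 0.5.8c, reports it, and neither tool's role is stated there. A header names the annotation Ensembl EF2.12. The sources used here do not give the normalization of counts. Among sense p-values deposited by the authors, 55 exceed 1, up to 1.17, of which 0 belong to members. Columns with such values were treated as the authors' score, as deposited, and left as they are. Of 5747 sense entries, 5639 had an identifier in RefSeq assembly ASM294v3, which gave coordinates, sequence identities and promoter windows. Depth per library is unknown here, so no interval is given.

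Computed here were counts of calls at the deposited adjusted p under 0.05, medians, differences of folds between strains, ranges within families and motif matches, with Python 3.11.15, pandas 2.3.3, numpy 2.4.6, Biopython 1.88 and matplotlib 3.10.9. The adjustment of p-values, the motif search, the sequence identity and the identical runs were tested on simulated data. No model was fitted, because the tables hold comparisons and no values per library. Members, the lists of 40S, mitochondrial, assembly, regulator and ubiquitin fusion genes, and all settings were chosen with earlier results of these data known. Described with all 3 strains were the 5 lowest and 5 highest called members of each comparison, those called against the main direction, the 3 families with the widest range in each comparison, the stalk genes and members with an antisense entry. A 40S gene that the rule for that list takes in is not reported here. The form CAGTCACG, the neighbours of rpl42 and rpp202 and the settings marked as added were chosen after the data were seen.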

Additional observations from a re-analysis of the deposited data

How the results depend on the processing

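Lower calls numbered 42, 16 and 75 in the xap5, pht1 and double deletions. They came to 25, 6 and 62 at a deposited adjusted p under 0.01, and to 5, 2 and 42 with a fold of at least 1.5. Without members over 95% identical in protein to a paralog, 40 are left, of which 18, 4 and 35 were lower. Among all sense entries 20.6%, 11.1% and 34.3% were lower at 0.05, a share that the 4 of 40 in the pht1 deletion do not exceed. The shares of all entries at 0.01 or 1.5-fold were not counted. By construction these settings can only remove calls. Higher calls of rpl1603 and rpl42, 1 each in the xap5 and double deletions, came to 0 under the first 2 settings. Medians of −0.35, −0.14 and −0.59 became −0.34, −0.12 and −0.53 when centred on all sense entries, and −0.33, −0.11 and −0.50 without the 95% identical members. Leaving out the 6 members with a shared run of 100 bases, added after the data were seen, gave −0.33 and −0.13 in the single deletions, and paralog ranges of 0.17 for 0.16 in the xap5 deletion and 0.25 for 0.24 in the double deletion. Centring, also added, moved the double minus single deletion medians to −0.21 and −0.44. Antisense calls in the pht1 deletion came to 0 for 6 at 0.01. Recomputed Benjamini-Hochberg adjustment lost 0, 2 and 0 calls and gained 0. Directions did not change in any of these settings. No paired analysis was possible because the tables hold no values per library, and leaving out single libraries was not run for the same reason. Depth per gene is unknown, so a gene that was not called may still have changed.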
